A study of Mus musculus with 41 samples.

Results

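The regions described here are distal binding sites of the histone methyltransferases MLL3 and MLL4 (MLL3/4, measured with a single antibody) that were occupied in epidermal stem cells (EpdSCs) before SOX9 was induced and were no longer called as peaks 1 and 2 weeks later. They were chosen by their measured signal in the MLL3/4 CUT&RUN (CNR) peak lists. A region had to be a D0 peak whose total signal, the coverage summed over the peak, was above the median of the D0 list, with no MLL3/4 peak of W1 or W2 overlapping it by even 1 bp, and had to lie farther than 1 kb from every annotated transcription start. Of the 37072 D0 peaks, 13498 were distal and above the limit, and 2383 of these (17.7%) met the rule. They are called lost sites below, where lost means only that no peak was called. The 8682 distal D0 peaks above the limit that were overlapped at both W1 and W2 are called kept sites, and the remaining 2433, lost at only 1 of the 2 times, partly lost sites. Because the rule used the D0, W1 and W2 MLL3/4 lists, the loss is a description and was not tested.

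The mice (CD1, male) carried K14rtTA and TRE-myc-Sox9, so that doxycycline (DOX) switches on MYC-tagged SOX9 in cells in which the K14 promoter is active, which are keratinocytes of the basal epidermis and its appendages. All in vivo groups share both transgenes, and D0, taken at postnatal day 21, was the group without DOX. EpdSCs were sorted from back skin as CD49f-high, CD34-negative and Ly6A-high cells that were negative for CD31, CD45, CD117 and CD140a, at postnatal day 28 for W1, 35 for W2 and 63 for W6, whereas W12 came from grafted skin. Age therefore rose together with the weeks of DOX, and the 2 cannot be told apart. Cultured keratinocytes from back skin had MLL3/4 and the MYC tag profiled without DOX, in cells carrying the wild-type transgene alone, and with DOX (1 µg/ml) switching on 1 of 3 forms of the protein: the wild type (WT-SOX9), a form lacking the transactivation domain (dTA-SOX9, noTA in the labels) or a form lacking the HMG domain that binds DNA (dHMG-SOX9, noHMG in the labels). Per the methods of the study, these forms were delivered by lentivirus under a TRE promoter into keratinocytes carrying Krt14-rtTA, with selection by puromycin. Each group has 1 peak list from 2 pooled samples (a list of 1 cultured no-DOX sample served as an alternative), which leaves no spread between replicates, so no difference between time points or constructs could be tested. Intervals given below are 95% intervals over regions (Wilson for a share, Newcombe for a difference) and cover counting error only.

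MLL3 and MLL4 (also called KMT2C and KMT2D) are catalytic subunits of COMPASS-like complexes that place a single methyl group on lysine 4 of histone H3, a mark of enhancers. They have no strong sequence preference of their own and are brought to enhancers by transcription factors. SOX9 is a high-mobility-group factor of hair follicle stem cells (HFSCs) that EpdSCs normally lack. EpdSC enhancers are bound by factors that include p63, AP-1, GATA3, KLF4 and the grainyhead-like family.

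The genome around the maximum of a lost site is shown first, because its short words are compared with those of kept sites below. The bases reach 50 bp to each side of the maximum and come from the mm10-equivalent RefSeq assembly GRCm38.p6. The first 4 regions had the highest D0 total signal of all lost sites, and the others the highest among sites holding an AP-1 or a SOX word. Capitals mark the GATA word AGATAA, the AP-1 word TGAGTCA or the SOX word CTTTGT, on either strand.
Gja1 region, chr10:56423227-56423327, plus strand: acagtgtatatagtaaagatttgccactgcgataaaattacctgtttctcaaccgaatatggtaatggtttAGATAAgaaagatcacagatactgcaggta
Cntn1 region, chr15:92366453-92366553, plus strand: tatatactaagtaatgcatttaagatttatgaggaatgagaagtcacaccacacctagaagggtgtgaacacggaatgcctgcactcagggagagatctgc
Grtp1 region, chr8:13206357-13206457, plus strand: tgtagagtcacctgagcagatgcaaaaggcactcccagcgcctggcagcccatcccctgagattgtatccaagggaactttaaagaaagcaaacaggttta
Pik3r1 region, chr13:101991174-101991274, plus strand: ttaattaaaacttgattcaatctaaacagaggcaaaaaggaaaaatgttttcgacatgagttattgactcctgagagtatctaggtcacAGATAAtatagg
Mylip region, chr13:45275156-45275256, plus strand: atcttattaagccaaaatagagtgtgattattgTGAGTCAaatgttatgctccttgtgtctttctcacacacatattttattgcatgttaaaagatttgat
Atrnl1 region, chr19:57958987-57959087, plus strand: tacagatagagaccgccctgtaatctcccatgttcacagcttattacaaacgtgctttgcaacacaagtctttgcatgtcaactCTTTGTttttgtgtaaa
St3gal3 region, chr4:118008690-118008790, plus strand: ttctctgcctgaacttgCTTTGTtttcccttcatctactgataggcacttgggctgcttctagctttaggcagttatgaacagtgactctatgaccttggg
The Gja1 region, the strongest of all, and the Pik3r1 region both hold the GATA word. The Cntn1 and Grtp1 regions hold none of the 3 words.

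Lost sites were among the weaker distal D0 peaks. Their total signal ranged from 1152 to 8698 with a median of 1513, against a median of 2482 in kept sites. The maximum coverage within a lost site had a median of 9 (range 5 to 41, with 5 also the lowest maximum called in the W1 and W2 lists), against 12 in kept sites, and lost sites were narrower, with a median width of 435 bp against 502 bp. The share of distal D0 peaks lost at both times was 34.0% (32.5 to 35.6) up to a total signal of 1500, 22.2% (20.8 to 23.7) from there up to 2000, 12.2% (11.1 to 13.3) up to 3000 and 2.99% (2.49 to 3.6) above 3000. Thus 109 lost sites had a total signal above 3000, beside 3308 kept sites.

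Many lost sites were close to the limits of the rule. The weakest lost site had a total signal of 1152, the strongest otherwise qualifying peak that was not taken was 1 unit weaker, and 467 lost sites were within 10% of the limit. The lost site nearest to a start was 1005 bp away, and the lost peak farthest from a start that was not taken was 996 bp away. The nearest W1 or W2 peak was 1 bp away from the closest lost site, and 282 lost sites (11.8%) had a W1 or W2 peak within 500 bp. The median distance from a lost site to the next MLL3/4 peak was 7812 bp at W1 and 8419 bp at W2. The values of the in vivo MLL3/4 lists are whole numbers and were taken as unscaled coverage, although the methods of the study describe RPKM-scaled tracks, and the depth behind them is unknown. Their highest maxima were 5686 at D0, 5633 at W1 and 5276 at W2, their lowest total signals 480, 484 and 461, and they held 37072, 31539 and 29281 peaks. Across all kept sites the median total was lower after D0, with 2482 at D0, 2043 at W1 and 2151.5 at W2 (no test, as these lists chose the sites). In kept sites with a D0 total up to 1500 it was higher, with 1321 at D0, 1451.5 at W1 and 1483.5 at W2. This band holds 1173 of the 2383 lost sites. In each stronger band it was lower after D0, and above 3000 it was 4410, 3005 and 3166.

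**Figure D1:**
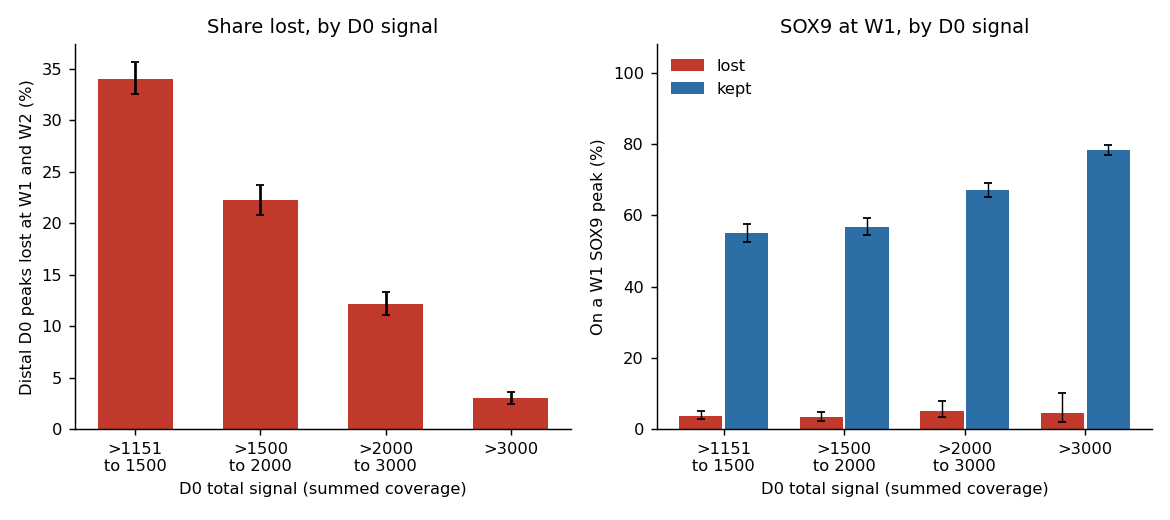
Left, the share of distal D0 MLL3/4 peaks lost at both W1 and W2, in percent, by D0 total signal, with 95% Wilson intervals. Right, the share of lost (red) and kept (blue) sites overlapped by a W1 SOX9 peak in the same bands. The lost share falls from 34.0% in the weakest band to 2.99% in the strongest, while the share of lost sites on SOX9 stays between 3.38% and 5.13%.

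In the genome, 1016 lost sites (42.6%, 40.7 to 44.6) lay outside every annotated gene body, 1182 (49.6%) lay in a gene body without touching an exon, and 185 (7.76%, 6.76 to 8.91) overlapped an exon. The shares of kept sites were 46.8% (45.7 to 47.8), 47.2% (46.2 to 48.3) and 5.98% (5.50 to 6.50). The intervals of lost and kept sites do not overlap for exons, where lost sites had the higher share, and outside gene bodies, where they had the lower. The median distance to the nearest start was 10175 bp for lost and 11098.5 bp for kept sites. The median GC content of the window around the maximum was 45.5% and 46.5%, and 4.20% (3.46 to 5.08) against 2.5% (2.19 to 2.85) of the windows were over 50% repeat-masked.

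SOX9 was rarely found at lost sites. A W1 SOX9 peak overlapped 93 of the 2383 lost sites (3.90%, 3.20 to 4.76) and 5852 of the 8682 kept sites (67.4%, 66.4 to 68.4), a difference of -63.5 percentage points (-64.7 to -62.2), with 47.5% of all distal D0 peaks above the limit overlapped. At W2 the shares were 4.74% and 66.6%, beside 47.2% of all such peaks. Partly lost sites lay between them, with 19.2% on a W1 SOX9 peak. With kept sites weighted to the D0 signal bands of the lost sites, 58.6% were on a W1 SOX9 peak and the difference was -54.7 points (-56.4 to -53.0). Within the 4 bands it ranged from -73.7 to -51.3 points. With only SOX9 peaks above 3600 RPKM it was -21.4 points. The nearest W1 SOX9 peak was at a median distance of 19249 bp from a lost site, and 11.2% of lost sites had one within 1 kb, against 71.0% of kept sites.

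Before induction, the short D0 SOX9 list overlapped 7 lost sites (0.294%) and 6.39% of kept sites (4.32% of all distal peaks above the limit). At W6 the share of lost sites on SOX9 was 8.22%, higher than at W1, while that of kept sites was 58.4% (43.1% of all distal peaks above the limit), and at W12 the shares were 2.14% and 24.8% (17.4% of all). Over W1 to W12 together, 13.3% of lost sites and 80.6% of kept sites were on a SOX9 peak at least once (61.0% of all distal peaks above the limit). The SOX9 lists also differed in length, from 792 peaks at D0 over 15651 (W1), 18657 (W2) and 20579 (W6) to 9745 (W12), and the part of list length in these shares was not tested.

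**Figure D2:**
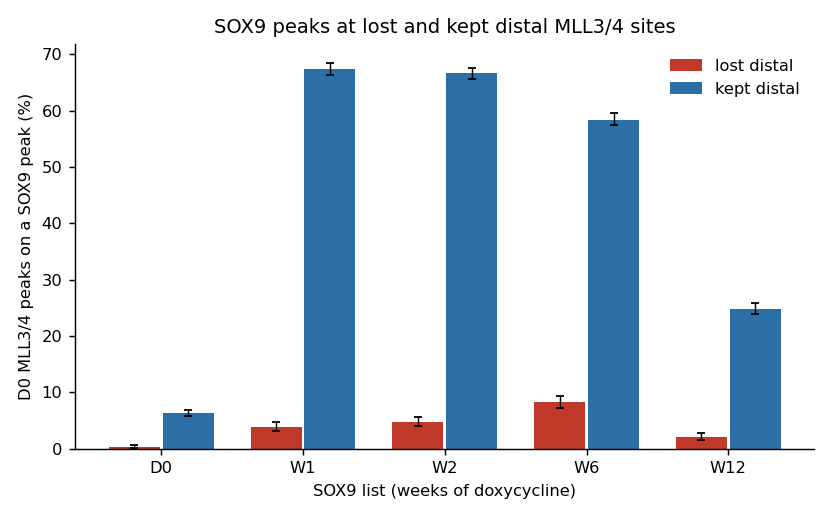
Share of lost (red) and kept (blue) distal D0 MLL3/4 sites overlapped by a SOX9 peak, in percent, in the SOX9 list of each time point, with 95% Wilson intervals. Lost sites stay at or below 8.22% at every time, and kept sites reach 67.4% at W1.

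A small set of lost sites was first on a SOX9 list at W6. On the W6 list but on none of the D0, W1 and W2 lists were 118 lost sites (4.95%) and 262 kept sites (3.02%). Of these 118 lost sites, 37 (31.4%, 23.7 to 40.2) held the AP-1 word and 2 (1.69%, 0.466 to 5.97) the GATA word. Of the 2063 lost sites on no SOX9 list at all, 11.3% (10 to 12.7) held the AP-1 word and 13.4% (12 to 15.0) the GATA word. The late sites were also mostly sites of cultured keratinocytes, 84 of 118 (71.2%) being on an MLL3/4 peak of cells without DOX, against 23.8% of the lost sites without SOX9. Of the 262 kept sites first on SOX9 at W6, 26.3% also held the AP-1 word and 75.6% were on the no-DOX list, against 7.26% and 45.1% of the kept sites on no SOX9 list. Their GATA shares had overlapping intervals, 6.11% (3.79 to 9.69) against 9.34% (8.04 to 10.8). The SOX word was in 12.7% (7.86 to 19.9) of the late lost sites against 6.01% (5.06 to 7.12) of those without SOX9, and in 4.20% against 6.07% of the kept sites.

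Lost and kept sites differed in their short DNA words. The words were searched on both strands in the window reaching 50 bp to each side of the maximum, and in windows of the same length 1 kb to each side. In all, 20 words of 15 factor families were compared, and the intervals are not adjusted for their number. The GATA word AGATAA, the core bound by GATA factors, was in 293 lost sites (12.3%, 11 to 13.7) and in 8.15% (7.60 to 8.75) of kept sites, a difference of 4.14 points (2.75 to 5.63). Of all D0 peaks 7.40% held it, and of all distal D0 peaks above the limit 8.85%. In the flanking windows it was in 6.04% and 6.32%. It was higher in lost sites in all 4 bands of D0 signal, by 3.78 to 5.38 points, and by 4.32 points (2.62 to 6.03) against partly lost sites, of which 7.97% held it. In a window reaching 100 bp to each side the difference from kept sites was 6.64 points. The second GATA word TGATAA, which shares its last 5 letters with the first, was in 7.43% of lost and 5.52% of kept sites (a difference of 1.91 points, 0.805 to 3.12).

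The AP-1 word TGAGTCA was in 302 lost sites (12.7%, 11.4 to 14.1) and 16.9% (16.1 to 17.7) of kept sites, a difference of -4.20 points (-5.71 to -2.61). Of all D0 peaks, promoter and weaker peaks included, 12.9% held it, which is within the interval of the lost sites. Of all distal D0 peaks above the limit, 15.8% held it, which is above that interval. In both groups it was concentrated at the maximum, 7.28 times the flanking share in lost sites and 8.03 times in kept sites. The difference was -2.25 points (-4.19 to -0.298) against partly lost sites, -8.01 in the wider window and -6.55 above a total signal of 1800. The SOX word CTTTGT was in 6.25% of lost and 8.05% of kept sites (-1.80 points, -2.88 to -0.616). Of all D0 peaks 7.02% held it, again within the interval of the lost sites (5.35 to 7.30), and of all distal D0 peaks above the limit 7.48%, above that interval. At lost sites the SOX word was below its share in the flanks, 8.85%. The same held for kept sites (9.16% in the flanks), partly lost sites (6.66% against 8.61%) and all D0 peaks (7.02% against 8.66%). Against partly lost sites the SOX difference was -0.406 (-1.80 to 0.988), an interval that includes 0, and in the wider window it was -4.04 against kept sites. The KLF word GGGTGTG was higher in lost sites, 7.89% against 6.23% (1.66 points, 0.513 to 2.91), and the TEAD word GGAATG lower, 8.18% against 10.3% (-2.15 points, -3.37 to -0.824). Of all D0 peaks, 5.90% held the KLF word and 8.55% the TEAD word, the latter within the interval of the lost sites (7.15 to 9.35). Of all distal D0 peaks above the limit, 9.69% held the TEAD word, above that interval. The KLF word was in 6.72% of them, just below the interval of the lost sites (6.87 to 9.04). Against partly lost sites both intervals included 0, with 0.573 (-0.927 to 2.08) for KLF and -0.695 (-2.28 to 0.887) for TEAD. The second SOX word CATTGT differed by -1.49 points (-2.34 to -0.531). The interval of the difference included 0 for the words of RUNX (AACCACA), AP-2 (GCCNNNGGC), the E-box (CAGCTG), ETS (CCGGAAG), the grainyhead-like factors (AACCGGTT and AACAGGTT), C/EBP (TTGCGCAA and TTGCACAA) and cAMP-type AP-1 (TGACGTCA), and for TP63, CTCF, NFI and IRF words. All but RUNX, AP-2, the E-box and AACAGGTT were in under 1% of the windows of either group.

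**Figure D3:**
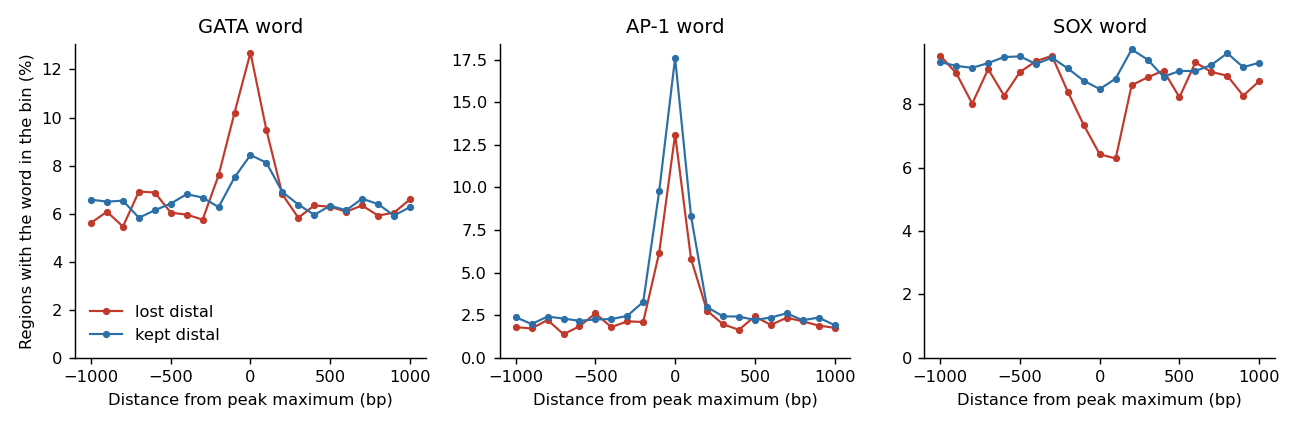
Share of lost (red) and kept (blue) sites with the GATA, AP-1 or SOX word in each 100-bp bin, in percent, against the distance of the bin from the peak maximum. The GATA word peaks at 12.7% in the central bin of lost sites, the AP-1 word at 13.1% in lost sites and higher in kept sites. The SOX word dips around the centre of lost sites (6.42% in the central bin) and less so of kept sites (8.48%).

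Lost sites with the GATA word differed from the other lost sites in some of the readouts that the rule had not used. A cultured no-DOX MLL3/4 peak overlapped 55 of the 293 (18.8%) and 28.8% of the remaining 2090, a difference of -9.98 points (-14.5 to -4.76). A W6 SOX9 peak overlapped 7 of the 293 (2.39%) and 9.04% of the rest (-6.65 points, -8.45 to -3.94), and the AP-1 word was in 8.87% and 13.2% of them. The interval included 0 for the W1 SOX9 list (-0.947, -2.67 to 1.82) and for the MYC tag with dTA-SOX9 (-1.20, -3.41 to 2.02). Among kept sites the GATA word went with a lower share on the no-DOX list too, 49.2% against 61.7% (-12.5 points, -16.4 to -8.72), on the W6 SOX9 list, 47.3% against 59.4% (-12.1, -15.9 to -8.28), and on the MYC list of dTA-SOX9 (-5.04, -7.73 to -2.01). Lost sites with the AP-1 word showed the opposite, 40.7% on the no-DOX list against 25.6% of those without it (15.1 points, 9.39 to 21), and 17.2% against 6.92% on the W6 SOX9 list, while for the W1 SOX9 list the interval included 0 (1.22, -0.917 to 4.37). Kept sites with the AP-1 word had higher shares on all 3 lists, with 74.7% against 57.8% on the no-DOX list, 77.5% against 54.6% on the W6 SOX9 list and 77.9% against 65.3% on the W1 SOX9 list (12.6, 10.2 to 14.9).

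A minority of lost sites were MLL3/4 sites in cultured keratinocytes. Without DOX, 656 lost sites (27.5%, 25.8 to 29.4) and 60.7% of kept sites were on a cultured MLL3/4 peak, a difference of -33.1 points (-35.2 to -31.0), beside 51.4% of all distal peaks above the limit. With kept sites weighted to the D0 signal bands of the lost sites, the difference was -24.4 points (-26.8 to -22.1). The list of replicate 1 alone gave 30.0% and 63.4%.

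With WT-SOX9 induced in culture, 67 of these 656 lost sites (10.2%, 8.12 to 12.8) were still on an MLL3/4 peak, whereas 391 (59.6%, 55.8 to 63.3) were on the dTA-SOX9 list and 385 (58.7%, 54.9 to 62.4) on the dHMG-SOX9 list. The no-DOX cells were those with the WT-SOX9 transgene, so the mutants are compared with another line. Both WT-SOX9 samples with DOX are described as replicate 2 although their titles number them 1 and 2, and whether they are distinct replicates is not settled. Counted site by site, 338 were on the dTA-SOX9 list and not on the WT-SOX9 list, and 14 the reverse. The numbers were 326 and 8 for dHMG-SOX9. Of the 5268 kept no-DOX sites, 1914 and 218 differed in this way for dTA-SOX9, and 2023 and 139 for dHMG-SOX9. The most common pattern, in 256 sites (39.0%), was a peak with both mutants and none with WT-SOX9, followed by no peak with any construct (181 sites, 27.6%). In kept sites these patterns made up 29.5% and 15.2%. Among kept sites 39.6% were on the WT-SOX9 list, 71.8% on that of dTA-SOX9 and 75.3% on that of dHMG-SOX9, and among all distal no-DOX sites the shares were 33.3%, 69.2% and 72.6%. As shares of all distal peaks above the limit, 18.1% were on the WT-SOX9 list, 37.9% on the dTA-SOX9 list and 39.2% on the dHMG-SOX9 list, against 2.94%, 19.2% and 18.6% of the lost sites.

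The WT-SOX9 list was the shortest, with 10546 peaks, whereas the no-DOX list held 33978, the dTA-SOX9 list 25951 and the dHMG-SOX9 list 23304. Its highest coverage was 1552, against 5387, 4767 and 4379. The part of list length and signal in these shares was not tested, and the alternatives that follow only describe the shares with equal lists or weighted signal. With the 3 lists cut to the same size, 10.2% of the no-DOX lost sites were on the WT-SOX9 list, 31.9% on that of dTA-SOX9 and 34.8% on that of dHMG-SOX9, and of the kept sites 39.6%, 47.3% and 53.1%. With the full lists, the difference of lost minus kept sites was -29.3 points (-31.8 to -26.5) with WT-SOX9, -12.2 (-16.1 to -8.26) with dTA-SOX9 and -16.6 (-20.6 to -12.7) with dHMG-SOX9. Lost sites also had weaker no-DOX peaks, with a median total signal of 2125 against 3537.5. With kept sites weighted to the no-DOX signal of the lost sites in 4 bins, the same difference, lost minus kept, was -17.5 points (-20.0 to -14.9) with WT-SOX9, 1.40 (-2.59 to 5.39) with dTA-SOX9 and -3.45 (-7.45 to 0.553) with dHMG-SOX9. This weighting was chosen after the data were seen.

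**Figure D4:**
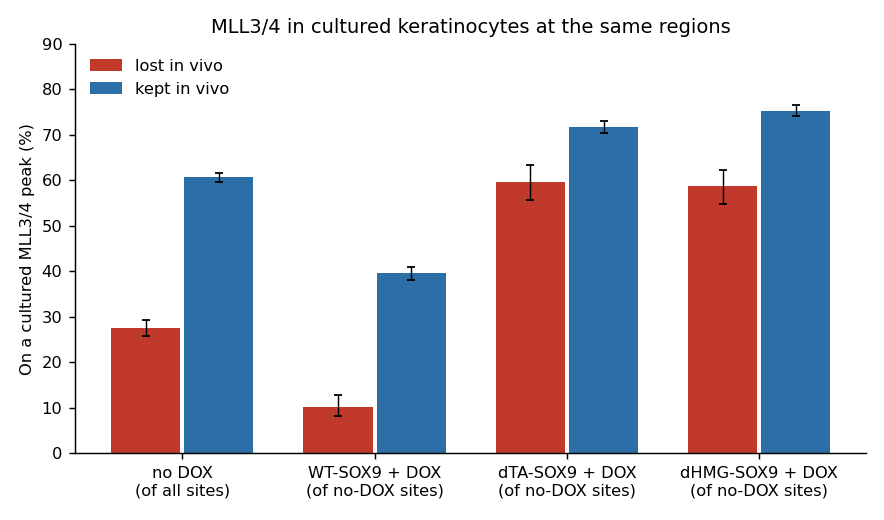
Share of lost (red) and kept (blue) sites on a cultured MLL3/4 peak, in percent, with 95% Wilson intervals. The first pair is out of all sites, and the other pairs are out of the sites on the no-DOX list. Lost sites are at 10.2% with WT-SOX9 and at 59.6% and 58.7% with the mutants.

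The MYC tag was profiled in culture to find where the induced forms of SOX9 bound, and the study reports no DNA binding by dHMG-SOX9. It was at 0.294% of lost and 6.19% of kept sites with WT-SOX9, at 5.83% and 20.9% with dTA-SOX9 and at 1.38% and 5.52% with dHMG-SOX9. Cells without DOX, in which the tag should be absent, gave 0.797% and 4.30%, so that the WT-SOX9 share at lost sites is read as no more than background. The dHMG-SOX9 shares are not read as binding. Of all distal peaks above the limit, 3.16% were on the MYC list without DOX (2242 peaks), 4.18% on that of WT-SOX9 (6671 peaks), 16.1% on that of dTA-SOX9 (11341 peaks) and 4.18% on that of dHMG-SOX9 (3980 peaks).

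The 15 lost sites of highest total signal, all at 4732 or above, were on no SOX9 list of any time, and 2 of them were on the cultured no-DOX list. Of the 15, 9 were intergenic, 5 lay in a gene body outside exons and 1 overlapped an exon. The highest, at 8698 with a maximum of 34, and another at 4745 lay 45.9 and 48.0 kb downstream of the start of Gja1, which encodes the gap junction protein connexin 43. The nearest W1 peak was 3097 bp from the first of them and the nearest W2 peak 343 bp. Next came a site at 7941 nearest to Cntn1 (a neural cell adhesion molecule), one at 6660 near Grtp1, one at 6181 near Pik3r1 (a regulatory subunit of phosphoinositide 3-kinase), one at 6153 near Mylip (an E3 ubiquitin ligase for the LDL receptor) and one at 6131 near Serp2. Below these were, among others, sites near Ltbr (the lymphotoxin beta receptor, 5549), Galnt18 (5342), Nr2f2 (an orphan nuclear receptor, 5064), Rgs2 (a regulator of G protein signalling, 5009), Wnt5a (a WNT ligand, 4814) and Atrnl1 (4732). The Nr2f2 site was on the cultured lists of all 4 conditions, and the Serp2 site on all but WT-SOX9.

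Lost sites were spread over 1712 nearest protein-coding genes, of which 1281 had a single lost site. Bcar3, an adaptor of integrin and growth factor signalling, was nearest to most, with 9 of its 11 distal D0 sites lost and 1 kept. All 9 lay within the gene, with total signals between 1379 and 2544. Of the 9, 5 were on the no-DOX list and 3 on the WT-SOX9 list in culture. Gja1 had 8 of 18 lost and 4 kept, at 19.5 to 283 kb from its start and with totals of 1529, 8698, 4745, 2577, 1200, 1671, 2069 and 1526 along the chromosome. None of the 8 was on a W1 SOX9 peak, 3 were on the no-DOX list and none on the WT-SOX9 list. Rora, an orphan nuclear receptor, had 8 of 17 lost, all in its introns and none on a cultured MLL3/4 list.

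Ywhaz, encoding a 14-3-3 protein, had 7 of 12 sites lost, of which 5 were on the no-DOX list. Igfbp3, a binding protein of insulin-like growth factors, had 7 of 15 lost, in a stretch at -340 to -232 kb from its start. Hes1, a repressor induced by NOTCH, had 6 of 12 lost and 4 kept, at -104 to 5.20 kb from its start, with totals of 1451, 1630, 1616, 2091, 1512 and 1586. Of these 6, 2 were on the W6 SOX9 list and none on the W1 list. Pla2g4e, a cytosolic phospholipase A2, had 6 of 7 lost and none kept. Nsf (6 of 12), Robo1 (6 of 11), Atxn1 (6 of 18) and the predicted gene Gm20388 (6 of 22) complete the genes with 6 or more, together with Actl7b and Gata3. Gm20388 is an annotated model of 4434882 bp that contains many other genes.

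Gata3, the transcription factor of epidermal differentiation, was nearest to 7 lost sites out of 48 distal ones, but all 7 lay 84.6 to 856 kb beyond its start, and 34 of the 48 were kept. Within 50 kb of the gene itself no site was lost, 5 were kept and 1 was partly lost. Between Klf4, a zinc-finger factor of the epidermal barrier, and Actl7b, an interval of 1208 kb chosen after its values were seen, 12 of 52 distal sites were lost and 32 kept. Within 50 kb of Trp63, which encodes p63, 1 of 12 distal sites was lost (total 1229, 215 kb from the start of the gene) and 6 were kept. Near Krt5, a keratin of basal cells, 1 of 3 was lost (total 1994). None was lost within 50 kb of Runx1, Ctnnb1, Vim or Sox9, which had 0, 1, 0 and 1 distal D0 sites.

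**Figure D5:**
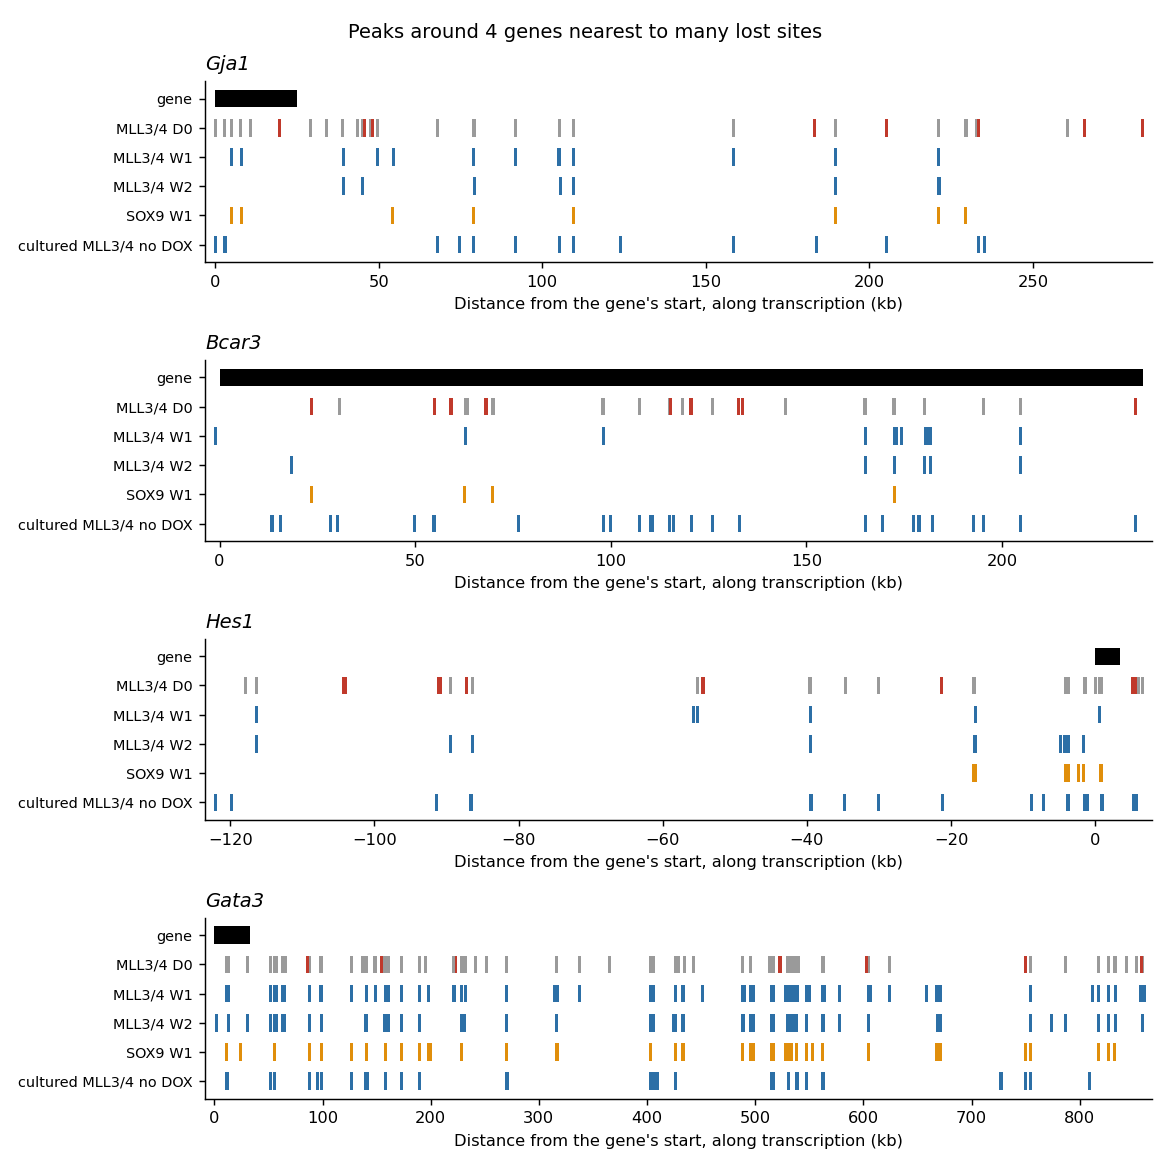
Peaks around Gja1, Bcar3, Hes1 and Gata3 against the distance from the start of the gene in kb, along transcription. Black is the gene body, red the lost sites and grey the other D0 MLL3/4 peaks (promoter and weaker peaks included), blue other MLL3/4 lists and orange W1 SOX9, with short peaks drawn at a minimum width. The 8, 9, 6 and 7 lost sites lie among other D0 peaks, and 0, 1, 0 and 1 of them are on a W1 SOX9 peak.

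Grouped by lists of genes, the share of distal sites that were lost was read against the background of 17.7%. Epidermal fate transcription factors had 39 of 219 sites lost (17.8%, 13.3 to 23.4), near that background. They included the 7 of Gata3 and those of Satb1, a chromatin organizer (5 of 10, totals of 1368 to 1836), Klf4 (5 of 24), Grhl1 (5 of 10, of which 4 are exon-shaped as described below), Klf5 (2 of 17), Grhl3 (2 of 10), Prdm1 (2 of 8), Id1 (2 of 4) and Trp63 (2 of 15). Connexins had 10 of 26 lost (38.5%, 22.4 to 57.5), of which 8 belong to Gja1 and 2 to Gjb5. The NOTCH pathway had 15 of 67 (22.4%, 14.1 to 33.7), with Hes1 (6), Jag1 and Maml3 (3 each) and Dll1 (2), and the WNT pathway 13 of 56 (23.2%, 14.1 to 35.8), with Wnt4 (3 of 7), Wnt5a and Wnt3a (2 of 2 each) and Apcdd1 (2 of 7).

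Further lists had shares under or above the background, several from few sites. The interval lay wholly under it for desmosome and adherens junction genes and for epidermal growth factor receptor and ligand genes. It included the background for the other lists of this paragraph. Desmosome and adherens junction genes had 7 of 84 lost (8.33%, 4.10 to 16.2; Ctnna1, Dsp and Pkp1 with 2 each), and hemidesmosome, integrin and laminin genes 8 of 65 (12.3%, 6.37 to 22.5), with 4 at Itga6. Epidermal growth factor receptor and ligand genes had 2 of 63 (3.17%, 0.875 to 10.9), both at Spry1, a feedback inhibitor, and the HFSC transcription factors 9 of 89 (10.1%, 5.41 to 18.1), with Nfib at 3 and Sox4 at 2. Cornified envelope and barrier genes had 11 of 58 (19%), 4 of them at the transglutaminase gene Tgm3, and keratins 3 of 20 (15.0%). AP-1 factor genes had 8 of 41 (19.5%), with Fos at 3 and Atf3 and Fosl2 at 2. The TGF-beta and BMP pathway had 14 of 84 (16.7%), with Bmp7 (3), Bmpr1b (2) and the receptor gene Tgfbr2 (2). HFSC surface and secreted markers had 6 of 28 (21.4%), with Npnt and Tnc at 2, the hedgehog pathway 5 of 22 (22.7%), with Cdon at 2, MLL3/4 and SWI/SNF complex genes 3 of 32 (9.38%, all at Arid1b), TLE co-repressors 2 of 19 (10.5%), suprabasal and sebaceous markers 2 of 12 (16.7%, both at Scd1) and RUNX genes 0 of 9 (upper Wilson bound 29.9%), all 9 being kept.

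At Grhl1, a grainyhead-like factor of epidermal differentiation, 4 of the 5 lost sites followed annotated exons. They were 163, 201, 145 and 177 bp wide, against a median of 435 bp for all lost sites, and 96.3%, 79.1%, 96.6% and 98.3% of each lay within an exon. All 4 were also on the D0 SOX9 list, and they make up 4 of the 7 lost sites on that list. Within Grhl1 9 of 14 D0 MLL3/4 peaks and 10 of 11 D0 SOX9 peaks touched an exon, against 3 of 6 MLL3/4 peaks at W1, 0 of 4 at W2, 0 of 2 SOX9 peaks at W1 and 1 of 3 at W2. In culture, 2 of 7 MLL3/4 peaks without DOX, 2 of 6 with dHMG-SOX9, 1 of 3 with WT-SOX9 and 0 of 2 with dTA-SOX9 did so. Whether the 4 exon-shaped peaks are MLL3/4 sites of the genome or come from a spliced copy of Grhl1 in the D0 samples was not tested. Without these 4 sites there were 2379 lost sites, and 35 near epidermal fate factors.

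Genes marking other cells of the skin had few distal D0 sites. Endothelial markers had 15, of which 6 were lost (40.0%, 19.8 to 64.3), 4 of 5 at Flt1 and 2 of 9 at Pecam1, while the remaining site, at Cdh5, was kept and the other 7 genes of the list had none. Immune markers had 5 sites with 3 lost (60.0%, 23.1 to 88.2), at Thy1 (2) and Ptprc (1), so that both lists had shares above the 17.7% of all distal sites. Fibroblast markers had 5 with 1 lost (Dcn), melanocyte markers 5 with 1 lost (Slc45a2) and Merkel cell markers 6 with 1 lost (Sox2). Of the lost sites near these markers, the one at Ptprc held the GATA word, and the others did not. The part of other cell types in the lost sites was not tested.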

How the data were processed

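CNR was profiled in sorted EpdSCs and cultured keratinocytes of 41 samples, of which 32, in 16 groups of 2, stand behind the 17 peak lists used (9 samples were not analysed here). The authors used Skewer for trimming and Bowtie2 (v. 2.2.9) for alignment to mm10, removed duplicates with Picard, kept fragments of up to 120 bp with SAMtools (v. 1.3.1), combined replicates, made tracks with deepTools (v. 3.1.2) and called peaks with SEACR (stringent, 0.01). Column 4 of each deposited list is a score, the total signal of the peak. The deposited maximum signal is in whole numbers in the pooled MLL3/4 lists, which were therefore taken as unscaled coverage although the methods name RPKM tracks for all CNR (the conflict is not settled), and RPKM in the SOX9 and MYC lists, which the authors restricted to values above 1800. In the list of cultured replicate 1 it is also scaled. No list gives read counts, so depth is unknown.

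Regions were intersected on chromosomes 1 to 19, X and Y with python (v. 3.11.15), pandas (v. 2.3.3) and scipy (v. 1.17.1), at a minimum overlap of 1 bp, and 3 mitochondrial peaks of each pooled cultured MLL3/4 list were left out. The in vivo lists held none. Starts, exons and gene bodies came from GENCODE M21, and bases from RefSeq GRCm38.p6, beyond whose chromosome ends no peak reached. The nearest gene is the protein-coding gene with the smallest distance to its body, 0 inside it. The named genes are those nearest to the 15 strongest lost sites, the 10 genes with most lost sites and those tied with the tenth, genes of 23 lists nearest to 2 or more lost sites, and 7 loci the study names. The regions and the lists were chosen with earlier results of these data known. With 1 pooled list per group no test between groups was possible, and the functions were tested on simulated data. Alternatives changed the overlap, distance, signal limit, list sizes, weighting of kept sites, window and word. A few genes and sequences that these rules name are not reported here.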

Additional observations from a re-analysis of the deposited data

How the results depend on the processing

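Of 56 alternatives for 9 results, 35 stayed within the interval of the reported value (within 1.5 times for the number of lost sites), 19 moved beyond it and 2 changed sign; the cause was not tested unless stated. The number of lost sites was 704 with a total signal above 1800, a limit that leaves fewer peaks, and between 2085 and 2488 otherwise. The difference between lost and kept sites in the share on a W1 SOX9 peak was -54.7 points with signal weighting, -66.9 above 1800, -21.4 for SOX9 peaks above 3600 RPKM and -67.3 for the union of W1 to W12. For the cultured no-DOX list it was -24.4 with signal weighting, -30.6 for no-DOX peaks above 1800 and -33.4 without replicate 2. With WT-SOX9 it was -23.1 weighted by D0 signal and -17.5 weighted by no-DOX signal, with dTA-SOX9 -5.73 and, with the sign changed, 1.40, and with dHMG-SOX9 -11.5 and -3.45. A window reaching 100 bp to each side gave -4.04 points for the SOX word, -8.01 for the AP-1 word and 6.64 for the GATA word. Above 1800 the AP-1 difference was -6.55. The second AP-1 word TGACGTCA, found in under 1% of windows, gave 0.0979 and the second GATA word 1.91. Against partly lost sites, an alternative added after the data were seen, the SOX word gave -0.406 (-1.80 to 0.988) and the AP-1 word -2.25. No paired analysis was possible because each group has 1 pooled list. Depth is unknown, so how far it limits the calling of weak sites was not tested.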

Other observations

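Some lost sites were neighbours, and the number to be expected at a lost share of 17.7% was not computed. Counting neighbouring distal D0 sites above the limit no more than 50 kb apart, 1781 lost sites stood alone and 220 pairs, 33 triplets, 12 runs of 4 and 3 runs of 5 held no kept or partly lost site between them. The runs of 5 were near Thbs1, encoding the matrix protein thrombospondin 1 (47.5 kb, totals of 1339 to 2107), within and beside Pla2g4e (78.7 kb, 1588 to 2486) and within Bcar3 (66 kb, 1379 to 2510). Runs of 4 were found, among others, near Igfbp3 (44.5 kb), near Sema3f, a secreted semaphorin (18.4 kb), around Actb and Fbxl18 (33.9 kb) and at Grhl1 (16.0 kb, exon-shaped sites included). At most 1 site of each of these 3 runs of 5 was on any SOX9 list of W1 to W12. The share of distal sites lost ranged from 14.8% on chromosome 16 to 22.0% on chromosome 5.

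In culture, word content also went with presence. Among lost sites on the no-DOX list, 18.8% (15.9 to 21.9) held the AP-1 word and 8.38% (6.50 to 10.8) the GATA word, and among those not on it 10.4% (9.01 to 11.9) and 13.8% (12.2 to 15.5). In kept sites the shares were 20.8% and 6.61% on the list and 10.8% and 10.5% off it. The SOX word was at 6.71% and 6.08% in lost sites.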
